A study of Mus musculus with 965 samples.

Results

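Hox genes were followed in single cells of mouse embryoid bodies, the 3-dimensional aggregates that embryonic stem cells form on withdrawal of leukemia inhibitory factor. Members were all rows of the count table named Hoxa, Hoxb, Hoxc or Hoxd with a paralog number, which gave 36 of 36849 genes: 10 Hoxa, 10 Hoxb, 8 Hoxc and 8 Hoxd genes. The cells derived from E14 embryonic stem cells that were wild type (WT), homozygous for a Dnmt3a knockout (3AKO, clones 3A2 and 3A38) or homozygous for a Dnmt3b knockout (3BKO, clones 3B126 and 3B77), with Dnmt3a and Dnmt3b coding for the de novo DNA methyltransferases. The 965 cells formed 14 libraries, 5 at day 3, 5 at day 6 and 4 at day 8, where clone 3A2 had no cells, and WT at day 8 joined the plates C343 and C344. WT was a single culture, so each genotype rested on 1 or 2 clones.

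Hox genes code for homeodomain transcription factors that give positional identity along the head-to-tail axis. They lie in 4 genomic clusters, and their order along the chromosome follows the order in which they are switched on and the level of the axis at which they act, from paralog group 1 at the hindbrain to paralog group 13 at the tail, limb buds and hindgut. Retinoic acid, Wnt and FGF signals and the Cdx factors activate them as the epiblast leaves pluripotency, Polycomb complexes keep them silent elsewhere, and the forebrain and midbrain stay without them. Here paralog groups 1 to 3 (8 members) are called anterior, 4 to 8 (14 members) central and 9 to 13 (14 members) posterior.

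Promoters of 20 of the 36 members were found in the RefSeq table for build GRCm38.p6. Those of Hoxa2, Hoxb1 and Hoxa5 are shown because these genes carry most of the signal described here, from 250 bases before to 50 after the start of the transcript, 5′ to 3′ on the gene's strand, with CG dinucleotides, the sites of DNA methylation, in capitals. Hoxa2 lies at chr6:52164782-52165081 on the minus strand, Hoxb1 at chr11:96365508-96365807 on the plus strand and Hoxa5 at chr6:52204538-52204837 on the minus strand.
Hoxa2: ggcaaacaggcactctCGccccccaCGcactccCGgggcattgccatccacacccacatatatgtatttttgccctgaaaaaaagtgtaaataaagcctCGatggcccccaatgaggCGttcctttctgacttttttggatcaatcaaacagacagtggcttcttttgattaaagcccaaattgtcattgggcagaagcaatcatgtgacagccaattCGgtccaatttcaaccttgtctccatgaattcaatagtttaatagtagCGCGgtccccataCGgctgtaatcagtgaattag
Hoxb1: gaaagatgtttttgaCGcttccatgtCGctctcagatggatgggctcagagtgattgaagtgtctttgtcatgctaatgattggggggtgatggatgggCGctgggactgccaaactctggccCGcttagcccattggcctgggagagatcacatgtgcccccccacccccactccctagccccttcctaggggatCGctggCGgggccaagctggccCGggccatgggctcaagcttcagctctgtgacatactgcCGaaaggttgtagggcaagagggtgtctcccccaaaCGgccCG
Hoxa5: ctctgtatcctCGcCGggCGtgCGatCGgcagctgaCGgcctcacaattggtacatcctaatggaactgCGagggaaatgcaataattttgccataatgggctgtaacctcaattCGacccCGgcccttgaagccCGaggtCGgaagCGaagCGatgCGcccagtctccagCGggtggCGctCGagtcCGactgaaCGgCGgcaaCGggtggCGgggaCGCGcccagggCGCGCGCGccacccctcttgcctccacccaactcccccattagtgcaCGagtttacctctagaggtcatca
The Hoxa2 window held 9 CG dinucleotides, the Hoxb1 window 10 and the Hoxa5 window 29. Of all 32851 promoter windows of this length, 54.2%, 56.5% and 87.1% held fewer. Over the 21 windows of Hox genes the number ran from 4 to 45 with a median of 14, beside a median of 7 over all windows. DNA methylation was not measured in these files.

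Libraries held 40 to 89 cells and 9810248 to 44529830 reads in all, with at least 50096 reads in a cell. Some libraries of day 8 went against their labels in the transcripts of the Y chromosome. Cells with at least 3 reads of a Y-linked gene made up 0% of 3B77 at days 3 and 6 but 27.5% of the library labelled 3B77 day 8. WT had 31.1% at day 3 and 52.2% at day 6, beside 14.3% on plate C343 and 0% on C344. Tests between days are also given without these libraries where that moved a call or a value.

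A cell was called Hox-positive when at least 1 Hox gene had at least 3 reads, and 328 of the 965 cells were. Smart-seq2 carries no molecular identifiers, so that the exact 95% Clopper-Pearson intervals below cover counting error only. A total of 35 members had a positive cell. Hoxd12, a posterior member, had 1 read in 1 cell. Members seen in at least 20 cells included Hoxa2 (114 cells), Hoxa5 (82), Hoxb1 (75), Hoxb5 (36), Hoxa3 (23), Hoxa9 (21), Hoxa10 (21) and Hoxb7 (20). Fewer cells had Hoxd8 (16), Hoxa4 and Hoxc4 (12 each), Hoxb9 (11), Hoxb4 (10), Hoxc5 and Hoxd4 (9 each), Hoxd9 (8), Hoxb2, Hoxc9 and Hoxd13 (7 each) and Hoxb8 (6). Hoxa7 and Hoxb6 had 5 cells each. Hoxa13, Hoxb13, Hoxc8 and Hoxd3 had 4 cells each, Hoxd1 and Hoxd10 3 each, Hoxc6, Hoxc10 and Hoxc13 2 each, and Hoxa11, Hoxb3 and Hoxc11 1 each. Hoxa genes held 72% of the 21157 Hox reads, Hoxb genes 17.5%, Hoxd genes 6.94% and Hoxc genes 3.60%.

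**Figure D1:**
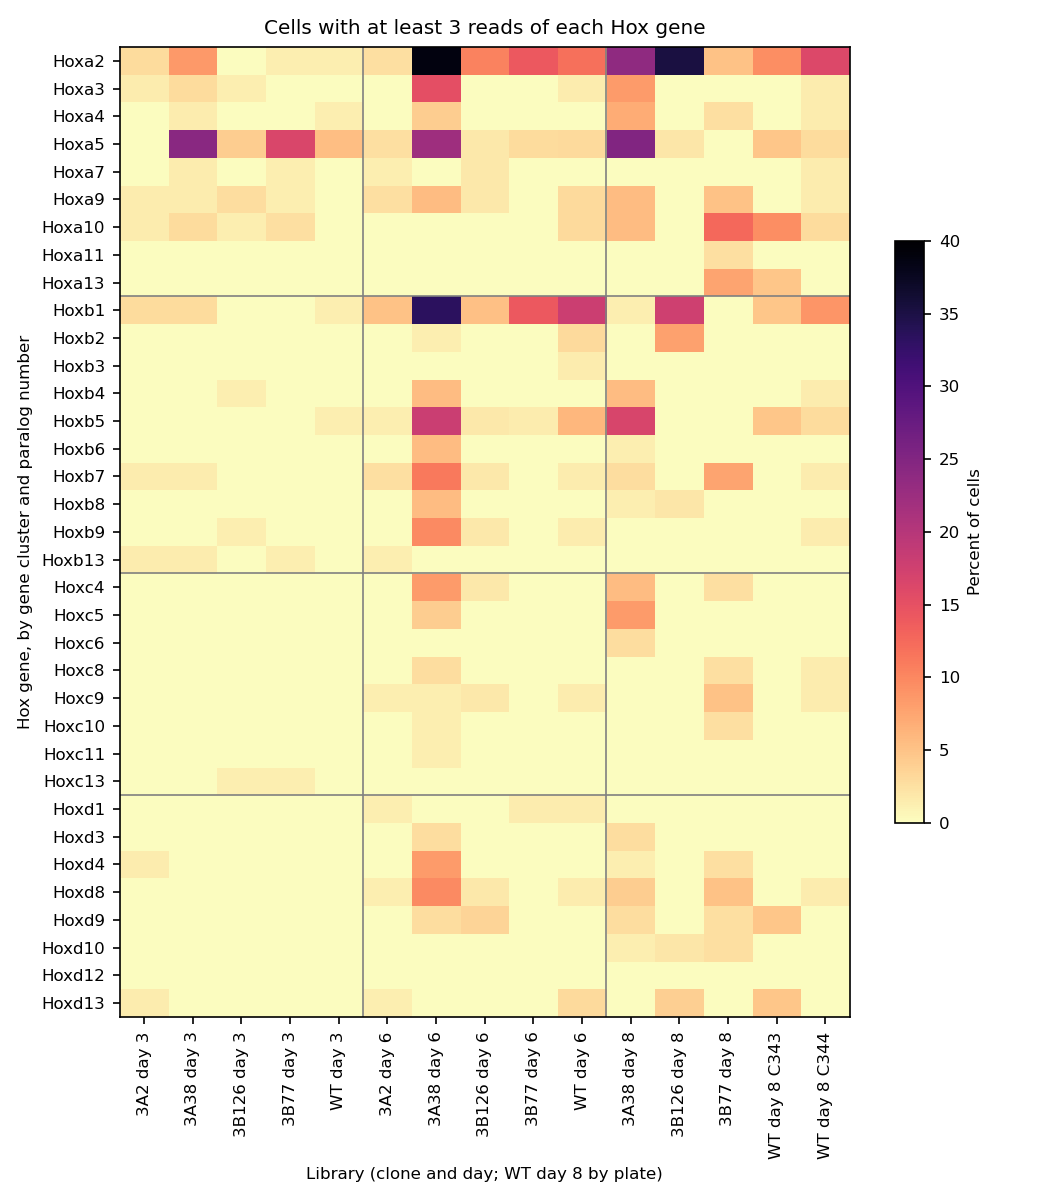
Percent of cells (colour, 0 to 40%) with at least 3 reads of each Hox gene described here (rows, by genomic cluster and paralog number) in each library (columns, days 3, 6 and 8 from left to right, WT day 8 by plate). Hoxa2, Hoxa5 and Hoxb1 were seen in many cells, clone 3A38 at day 6 showed the broadest set, and Hoxa13 had its 4 positive cells in the library labelled 3B77 day 8 (3 cells) and on plate C343 (1 cell).

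Reads of a member often came from few cells. A single cell held 18.1% of all Hoxa2 reads, 9.42% of the Hoxa5 reads and 10.8% of the Hoxb1 reads, but 91.6% of the Hoxd10 reads and 83.6% of the Hoxc8 reads. Levels per exon length not shared with another gene, as the mean over the 14 libraries of CPM (counts scaled to a common library size) per kilobase, were 9.88 for Hoxa2, 1.71 for Hoxa5 and 1.65 for Hoxb1. The next members described here had at most 0.739, the level of Hoxb5. Several members share exon bases with neighbours (GENCODE annotation, GRCm38): Hoxd3 62.8%, Hoxb3 52.9%, Hoxd4 52.3%, Hoxa11 35%, Hoxb2 27.3% and Hoxa3 27.1%. The sources used here do not give the strand setting of the counting, so that low values of these 6 genes are uncertain.

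To ask when Hox genes appear, the share of Hox-positive cells was compared between days with the clone as the replicate. At day 3 the share was 20.3% in 3A2, 41.4% in 3A38, 15.1% in 3B126, 24.1% in 3B77 and 16.2% in WT. It was 27.5%, 66.7%, 25.9%, 23.9% and 43.3% at day 6 in the same order. At day 8 it was 56.9% in 3A38, 54.9% in 3B126, 35% in 3B77 and 32.6% in WT (28.6% on plate C343, with 6 of 21 cells, and 33.8% on C344, with 23 of 68). The share was higher at day 6 than at day 3 in 4 of 5 clones and higher at day 8 than at day 3 in 4 of 4, and the ranges of the days overlapped.

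**Figure D2:**
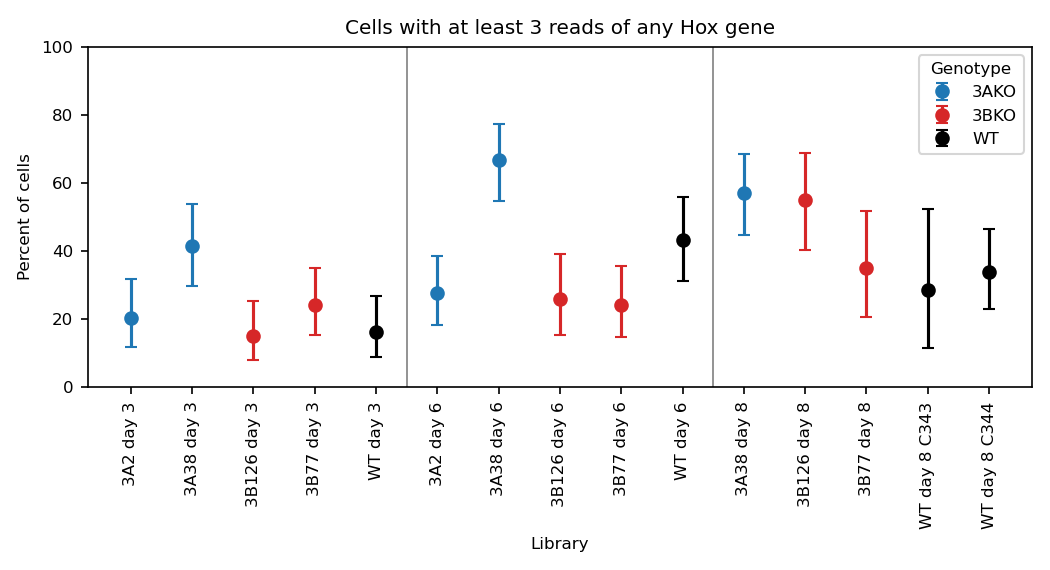
Hox-positive cells in percent of the cells of each library (y axis) by library (x axis), coloured by genotype, with exact 95% intervals of counting error. Clone 3A38 was highest at each day, at 41.4%, 66.7% and 56.9%.

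The mean over clones was 23.4% ± 10.7 (SD, n = 5) at day 3, 37.5% ± 18.1 (SD, n = 5) at day 6 and 44.9% ± 12.8 (SD, n = 4) at day 8. The difference of 21.4 percentage points between days 8 and 3 had p = 0.0317 in a two-sided exact permutation test, and that of 14 between days 6 and 3 had p = 0.167. Adjusted by Benjamini-Hochberg over both tests, the exact p-values were 0.0635 and 0.167, so that neither passed 0.05. Paired by clone, an exact sign-flip test gave p = 0.13 for day 6 (smallest possible 0.063) and p = 0.13 for day 8, the smallest that 4 clones allow. Without the library labelled 3B77 day 8 the difference at day 8 was 24.7 (exact p = 0.0536), and without plate C344 it was 20.4 (exact p = 0.0556). With every cell thinned to 50000 reads, the differences were 17.6 points at day 6 (exact p = 0.0238) and 21.7 at day 8 (exact p = 0.00794).

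The number of members per cell was counted over the pooled cells of each day, which are not replicates. At day 3, 61 of 85 positive cells had a single Hox gene and 7 had 3 or more, of which 4 were cells of 3A38. At day 6, 42 of 131 had 3 or more, of which 28 were cells of 3A38, and at day 8, 21 of 112, of which 15 were of 3A38. The libraries of other clones had 0 to 3 such cells at day 3, 2 to 5 at day 6 and 0 to 3 at day 8. The highest number was 12, in a neural progenitor-like cell of 3A38 at day 6 that had, among others, Hoxa2, Hoxa9, Hoxb1, Hoxb5, Hoxc8 and Hoxd8. Of the 20 cells with 5 or more, 18 came from 3A38.

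Summed counts per library were then compared with edgeR's quasi-likelihood test over all 24083 genes that passed the filter on low counts, 33 of the 36 members among them. Hoxa11, Hoxc11 and Hoxd12 did not pass. Between days 6 and 3, 0 of 33 members were called at an adjusted p under 0.05, against 0.0374% of all genes, where DESeq2 called 4 (Hoxa2, Hoxa9, Hoxb1 and Hoxb5) beside 5.93% of all genes. At an unadjusted p under 0.05 there were 10 of 33, 9 of them higher at day 6, beside 11.6% of all genes, and 27 of 33 had a higher fitted level, with a median log2 fold change of 2.84 beside 0.11 over all genes. Between days 8 and 3, 1 of 33 was called, Hoxa2, against 0.822% of all genes, and 3 by DESeq2 beside 11.4%. A further 7 were higher at an unadjusted p under 0.05, beside 16.3% of all genes, and the median log2 fold change was 3.44 beside -0.01 over all genes. Between days 8 and 6, 0 of 33 were called and 0 of all genes, and 1 (Hoxa10) by DESeq2 beside 1.37% of all genes. There, 4 were under 0.05 unadjusted, 2 in each direction, beside 5.59% of all genes. Changes in bulk sums cannot tell more Hox-expressing cells from more RNA per cell.

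Hoxa2, the most anterior-acting Hox gene of the hindbrain and a determinant of the second branchial arch, rose. Its level in CPM at day 3 was 0.846 in 3A2, 6.75 in 3A38, 0 in 3B126, 0.332 in 3B77 and 0.299 in WT. At day 6 it was 4.61, 24.5, 8.18, 9.73 and 7.57 in the same order. At day 8 it was 92.8 in 3A38, 21.3 in 3B126, 13.6 in 3B77 and 17.9 in WT. The lowest library of day 8, labelled 3B77, was above the highest of day 3 through a single cell. The log2 fold change was 5.69 ± 1.10 (SE) between days 8 and 3 (edgeR adjusted p = 0.0278) and 4.06 ± 0.98 between days 6 and 3 (adjusted p = 0.148). Without clone 3B126 the call at day 8 was lost (edgeR adjusted p = 0.0515), and without single clones the log2 fold change ran from 5.27 to 7.55. Positive cells numbered 0 to 6 per library at day 3, 2 of 80 in 3A2 to 28 of 72 in 3A38 at day 6 (2.5% and 38.9%), and 2 of 40 in 3B77 to 18 of 51 in 3B126 at day 8 (5% and 35.3%). Clone 3A2 had 2 positive cells at days 3 and 6 alike. Of the 158 Hoxa2 reads in the library labelled 3B77 day 8, 155 came from this single cell. The library's place above those of day 3 rests on it.

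Hoxb1, which specifies rhombomere 4 of the hindbrain, was near 0 at day 3, with 0.474 CPM in 3A2, 0.357 in 3A38, 0 in 3B126, 0 in 3B77 and 0.150 in WT. At day 6 it had 2.09, 27.4, 1.13, 3.66 and 5.55 CPM in that order, each above every value of day 3. At day 8 it had 6.21 CPM in 3B126 and 6.42 in WT, but 0.193 in 3A38 and 0 in 3B77. Its log2 fold change was 6.43 ± 1.75 (SE) at day 6 (edgeR adjusted p = 0.197) and 4.55 ± 1.61 at day 8 (adjusted p = 0.174). The value at day 8 was 1.44 without clone 3B126 and 7.25 without 3A38.

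Hoxa5, a central gene of the cervical and lung level, was present at day 3 already, in 17 cells of 3A38 and 13 of 3B77. Its CPM at day 3 were 0.101 in 3A2, 4.39 in 3A38, 2.08 in 3B126, 3.42 in 3B77 and 2.49 in WT. At day 6 they were 0.815, 10.4, 0.867, 0.503 and 1.08, and at day 8 14.9 in 3A38, 0.282 in 3B126, 0 in 3B77 and 3.69 in WT. No common direction over the clones was seen, with a log2 fold change of -0.63 ± 1.16 (SE) between days 6 and 3 (edgeR adjusted p = 1.00).

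Hoxb5, the Hoxb paralog of Hoxa5, had 0 CPM at day 3 in the 4 knockout clones and 0.649 in WT. At day 6 it had 0.780 CPM in 3A2, 4.48 in 3A38, 0.189 in 3B126, 0.637 in 3B77 and 1.18 in WT, and at day 8 19.2 in 3A38, 0 in 3B126, 0.172 in 3B77 and 0.546 in WT. Its log2 fold change was 5.48 ± 1.62 (SE) between days 6 and 3 (edgeR adjusted p = 0.239), and 4.76 without 3A38 and 7.87 without WT. Hoxb7 ranged from 0 to 1.26 CPM at day 3, from 0 to 3.42 at day 6 and from 0 to 3.70 at day 8. Hoxa3, a gene of the pharyngeal arches, ranged from 0 to 0.899, from 0.0335 to 1.87 and from 0 to 3.92 CPM, with the highest value of days 6 and 8 in 3A38.

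Of the posterior members, Hoxa9 had 3.37 CPM in 3A2, 16.7 in 3A38, 13.8 in 3B126, 0 in 3B77 and 1.08 in WT at day 6, against 0 to 1.26 at day 3. Of these reads 364 of 365 in 3B126, 90 of 95 in 3A2 and 376 of 698 in 3A38 lay in 1 cell each. Hoxa10, a gene of the lumbar level and the uterus, was at 0.0499 to 2.30 CPM at day 3. The highest was 3A2, with all 68 reads in 1 cell. It was at 0 to 0.590 CPM in all libraries of day 6. At day 8 it had 7.51 CPM in 3A38, 9.22 in 3B77 and 1.41 in WT, the last below 3A2 at day 3. In 3B126 it had 0 (0 of 51 cells, where the exact interval of cells with at least 3 reads reaches 6.98%). Its log2 fold change between days 8 and 6 was 6.24 ± 1.94 (SE, edgeR adjusted p = 0.707). Without the library labelled 3B77 day 8 it was 2.94, and without that library and plate C344 3.46. Hoxa13, a gene of the limb tip and hindgut, had 4 positive cells in all.

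**Figure D3:**
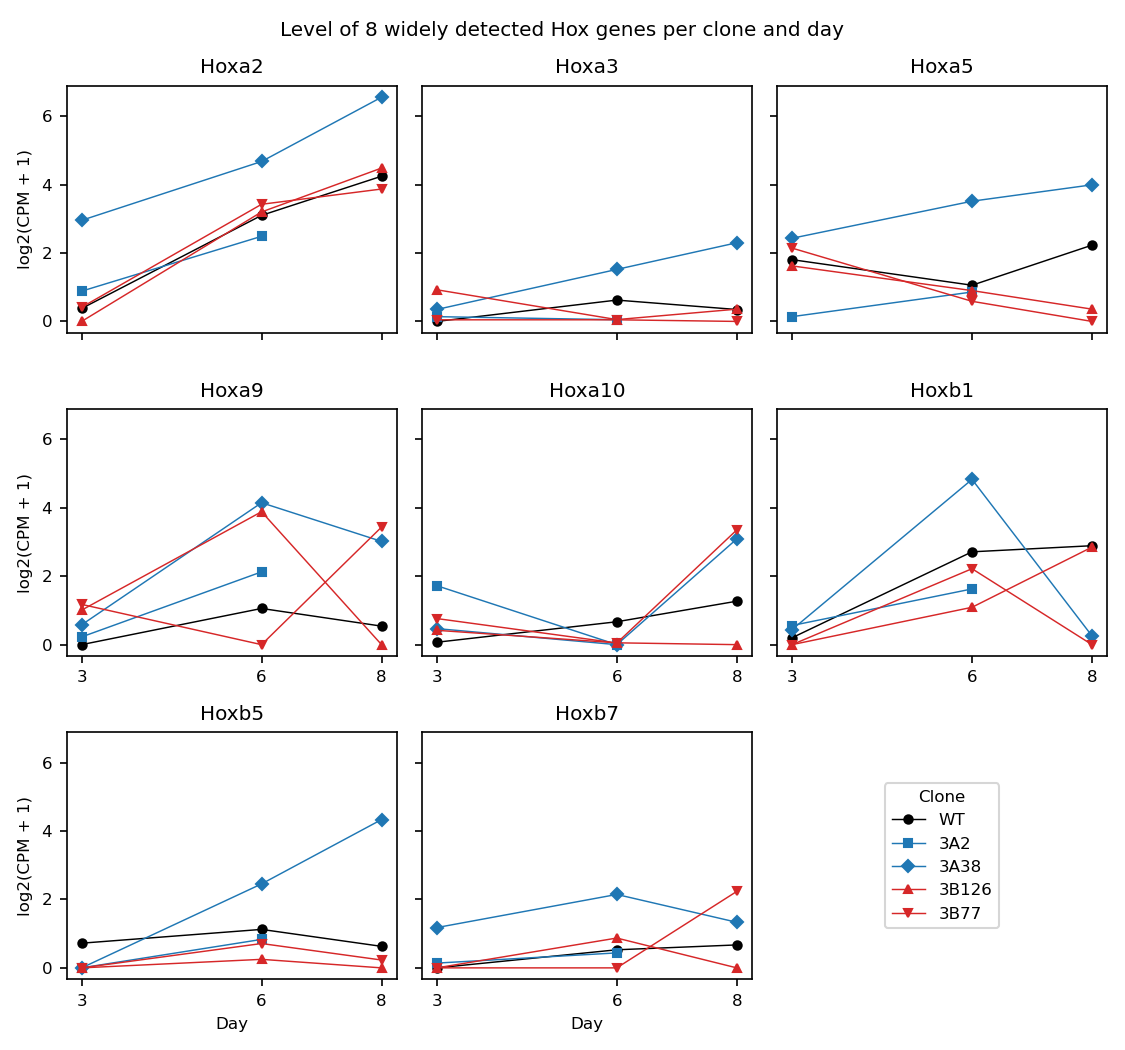
Level of 8 members seen in at least 20 cells, as log2(CPM + 1) of the summed counts (y axis), by day (x axis), with a line per clone coloured by genotype (black WT, blue 3AKO, red 3BKO). Hoxa2 was higher at day 8 than at day 3 in each of the 4 clones with both days. In the library labelled 3B77 day 8 this rests on a single cell with 155 of its 158 Hoxa2 reads. Clone 3A38 had the highest Hoxa2 and Hoxb5 of day 8, at 92.8 and 19.2 CPM.

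To compare the head and tail ends of the clusters, anterior and posterior members were set side by side within each library. At day 6 an anterior member was seen in 17.5% of cells of 3A2, 56.9% of 3A38, 24.1% of 3B126, 23.9% of 3B77 and 32.8% of WT. A posterior member was seen in 6.25%, 15.3%, 3.45%, 0% and 10.4% (0 of 71 cells of 3B77, where the interval reaches 5.06%). Anterior exceeded posterior in 5 of 5 clones, by a mean of 24 percentage points (two-sided exact sign-flip p = 0.063, the smallest that 5 clones allow). At day 8 the anterior shares were 31.9% in 3A38, 51% in 3B126, 10.0% in 3B77 and 21.3% in WT, and the posterior shares 11.1%, 5.88%, 20% and 6.74%. The mean difference was 17.6 points (exact p = 0.25, smallest possible 0.13). The library labelled 3B77 day 8 ran the other way, and without it the difference was 26.8 points (exact p = 0.25, the smallest 3 clones allow). It was 8.48 points without 3B126, 12.8 without plate C344 and 20.4 without that plate and the library labelled 3B77 day 8. Plate C343 also had more posterior than anterior cells, with 14.3% (3.05 to 36.3) and 9.52% (1.17 to 30.4).

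**Figure D4:**
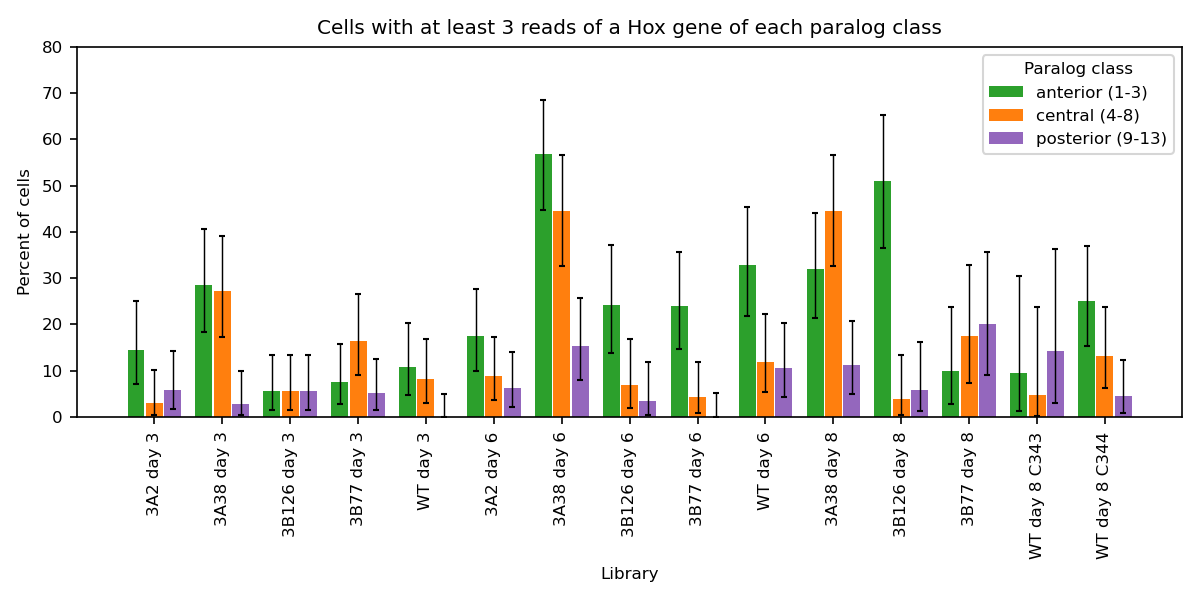
Percent of cells (y axis) with at least 3 reads of an anterior, central or posterior Hox gene in each library (x axis), with exact 95% intervals of counting error. Anterior exceeded posterior in each library of day 6, whereas the library labelled 3B77 day 8 had 20% posterior and 10.0% anterior.

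The 2 libraries with the highest shares at day 8 differed in which members they held. In 3B126, 23 of 28 positive cells had anterior members alone, a central member was seen in 3.92% of cells (0.478 to 13.5), and no cell had more than 2 Hox genes. In 3A38, 5 of 41 had anterior members alone, and 44.4% of cells (32.7 to 56.6) had a central member, Hoxa5 (18 cells) and Hoxb5 (12 cells) the most frequent. At day 3 the anterior and central classes had 10 and 2 of 69 cells in 3A2, 20 and 19 of 70 in 3A38, 4 and 4 of 73 in 3B126, 6 and 13 of 79 in 3B77 and 8 and 6 of 74 in WT, so that no common order was seen.

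Genotypes were compared to ask whether loss of either methyltransferase bears on the Hox genes. The 3BKO clones had 24.9% ± 1.36 (SD, n = 2) Hox-positive cells at day 6 and the other clones 45.8% ± 19.7 (SD, n = 3), which put 3BKO minus the others at -20.9 percentage points (exact permutation p = 0.2, smallest possible 0.1). That difference was -10.5 without 3A38 and -12.1 with at least 10 reads. At day 8 they had 45% ± 14.1 (SD, n = 2) and 44.8% ± 17.2 (SD, n = 2, exact permutation p = 1). These designs cannot reach 0.05. Within batch 2, which alone holds clones of different genotypes, 3B126 and WT had 15.1% and 16.2% at day 3, 25.9% and 43.3% at day 6, and 54.9% and 32.6% at day 8. All other comparisons of genotypes cannot be told apart from the batch. In edgeR, 0 of 33 members were called in the 8 contrasts of 3AKO or 3BKO with WT (levels at each day and changes from day 3 to 6), and 0% of all genes. DESeq2 also called 0 members, beside 0.88%, 0.282% and 0.0747% of all genes for 3BKO at days 3, 6 and 8, 2.95%, 0.191% and 2.19% for 3AKO, and 0.336% and 0.718% for the changes in 3BKO and 3AKO. From 0 to 3 members were under 0.05 unadjusted in each, beside 1.42% to 7.62% of all genes. In these contrasts WT was a single library at each day, and 3AKO at day 8 was 3A38 alone. The lack of calls therefore does not show that the genotypes were alike. The 3AKO clones stood far apart, with 27.5% in 3A2 and 66.7% in 3A38 at day 6. Targeted transcripts followed the labels at day 3, when Dnmt3a had 24.1 and 13 plain CPM in the 3AKO clones against 118 to 153 elsewhere, and Dnmt3b 17.8 and 35.3 in the 3BKO clones against 239 to 285 elsewhere. Dnmt3a was also lowest in the 3AKO clones at days 6 and 8, but Dnmt3b did not separate the 3BKO clones, with 37.3 and 13.4 at day 6 against 11.9 to 69.7 elsewhere and 4.24 and 5.50 at day 8 against 0.651 and 4.22.

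Cells were clustered with the Hox genes left out of the features, and clusters were named from fixed markers. The mesenchyme-like cluster 6 (Lum, Col1a2, Postn) held 48 Hox-positive of 76 cells (63.2%, 51.3 to 73.9), the endothelial-like cluster 3 (Cdh5, Esam, Flt1) 52 of 93 (55.9%, 45.2 to 66.2) and the neural progenitor-like cluster 4 (Fabp7, Hes5, Sox1) 48 of 86 (55.8%, 44.7 to 66.5). The neuron-like cluster 8 (Nefm, Nefl, Map2) had 18 of 38 (47.4%, 31 to 64.2) and the second neural progenitor-like cluster 5 (Pou3f3, Pax3) 30 of 83 (36.1%, 25.9 to 47.4). The name epiblast-like covered clusters with different markers. Cluster 0 had Zfp42 and Esrrb raised but not Pou5f1 or Fgf5, cluster 1 Pou5f1 and Fgf5, and cluster 2 Pou5f1, Zfp42 and Esrrb. The study lists Zfp42 and Esrrb as naive and Fgf5 as primed pluripotency markers. Epiblast-like clusters 0, 1 and 2 had 17.3%, 35.6% and 6.67%, and the unnamed cluster 7, with 1 epiblast marker alone, 39.7%. In the blood-like cluster 9 it was 1 of 37 cells (2.7%, 0.0684 to 14.2), the lowest share. Cluster 9 had a median of 249753 reads and 4816 genes per cell, beside 235513 reads and 5924 genes in cluster 3, and the part of depth was not tested. Of its cells 17 were of 3A38 at day 6, 11 of the library labelled 3B77 day 8 and 6 of plate C343. Thinned to 50000 reads per cell, the shares were 47.4%, 39.8%, 40.7%, 39.5% and 25.3% in clusters 6, 3, 4, 8 and 5. They were 3.78% in cluster 0, 12.6% in cluster 1, 2.5% in cluster 2, 16.4% in cluster 7 and 0% in cluster 9. The clusters also differed in day and library, which these pooled shares do not separate, and cluster 6 held no cells of day 3. Within WT at day 6, 7 of 15 cells were Hox-positive in cluster 1 and 8 of 16 in cluster 3. There it was 5 of 10 in cluster 6, 2 of 4 in cluster 4 and 4 of 12 in cluster 5. Cells are not replicates, so no test was made between clusters.

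**Figure D5:**
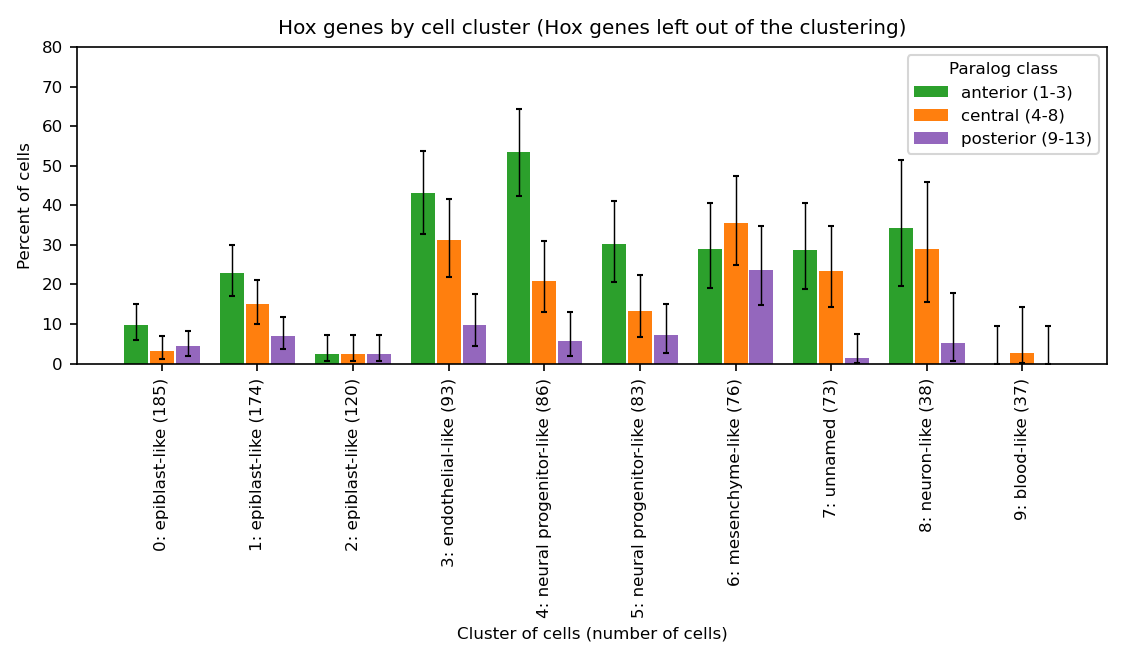
Percent of cells (y axis) with at least 3 reads of an anterior, central or posterior Hox gene in each cluster of cells (x axis, with number of cells), with exact 95% intervals of counting error. The neural progenitor-like cluster 4 had 53.5% anterior and 5.81% posterior cells, the mesenchyme-like cluster 6 28.9% and 23.7%.

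The clusters held different members. Of the 114 Hoxa2 cells 36 were in cluster 4 and 17 in cluster 5, and of the 75 Hoxb1 cells 27 were in cluster 4 and 21 in cluster 3. Hoxb5 was seen in 13 endothelial-like cells. Posterior members were seen in 18 mesenchyme-like cells (23.7%), with 11 of the 21 Hoxa10 cells and all 4 Hoxa13 cells, against 5 cells of cluster 4 (5.81%). These posterior mesenchyme-like cells came from the library labelled 3B77 day 8 (8 of 23), 3A38 at day 8 (4 of 21), plate C343 (3 of 14), plate C344 (1 of 1), and day 6 of 3A38 (1 of 7) and WT (1 of 10). Without the library labelled 3B77 day 8 and both plates, only those of 3A38 and of WT at day 6 remain, and no Hoxa13 cell. Most of the posterior cells were thus in the libraries left out. For any Hox gene, 28 of the 38 mesenchyme-like cells that remain were positive (73.7%, 56.9 to 86.6). Leaving out clone 3A38 instead, 25 of 48 mesenchyme-like cells (52.1%, 37.2 to 66.7) and 33 of 70 endothelial-like cells (47.1%, 35.1 to 59.4) were Hox-positive. The share over the neural progenitor-like cells of clusters 4 and 5 was then 37.8% (29.1 to 47.2) in place of 46.2%.

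Of the 82 Hoxa5 cells, pooled over days, 20 were in the epiblast-like cluster 1, 14 in cluster 7, 15 in the neural progenitor-like clusters, 13 in the endothelial-like, 8 in the mesenchyme-like and 7 in the neuron-like cluster. Repeat transcripts (Gm21738, Gm10801) led cluster 1 by fold beside Pim2 and Fgf5, and their part in this count was not tested.

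Members were seen together in cells. Hoxa2 was found in 38 of the 75 Hoxb1 cells (50.7%), against 8.54% of cells without Hoxb1. Hoxa5 was found in 17 of the 36 Hoxb5 cells (47.2%), against 7.0% of the others. Hoxa9 was found in 7 of the 21 Hoxa10 cells, and Hoxb1 in 0 of them. These shares pool libraries, of which 3A38 gave the most cells with several members.

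Otx2, the homeobox gene of the forebrain and midbrain, was compared with Hox genes in the neural clusters. Among Otx2-positive cells (at least 3 reads), 3 of 18 were Hox-positive in cluster 4 (16.7%), 6 of 37 in cluster 5 (16.2%) and 0 of 8 in cluster 8. Among Otx2-negative cells the shares were 66.2%, 52.2% and 60%. Libraries differed in both genes. Of 23 cells of 3A38 at day 6 in cluster 4, 20 were Hox-positive and 2 Otx2-positive, with no cell positive for both. Of 17 cells of 3B77 at day 6 there, 5 were Hox-positive, 11 Otx2-positive and 3 both. This library held 11 of the 18 Otx2-positive cells of cluster 4. Its Hox-positive share was 27.3% with Otx2 and 33.3% without, little of the pooled difference. In cluster 5, 3B126 at day 8 also showed little of the pooled difference. Of its 9 cells 7 were Hox-positive, 4 Otx2-positive and 3 both, which put the Hox-positive share at 75% with Otx2 and 80% without.

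Companion genes of the Hox system were taken as lists. Of 8 tested noncoding RNAs of the Hox clusters, 1 was called between days 8 and 3, Hoxb3os, beside 0.822% of all genes. All 8 were fitted higher, with a median log2 fold change of 2.88. Hoxb3os, whose exons overlap Hoxb2 and Hoxb3 on the other strand, ranged from 0 to 0.798 CPM at day 3, from 2.26 to 9.04 at day 6 and from 1.46 to 20.5 at day 8 (log2 fold change 7.53 ± 1.5, SE, edgeR adjusted p = 0.0322). This call was lost with the clone as a block (edgeR adjusted p = 0.0663) and without 3A38 or 3B126 (0.0636 and 0.0538). Of 16 tested retinoic acid genes 1 was called, beside the same 0.822% of all genes. It was Cyp26b1, an enzyme that degrades retinoic acid. It was at 0 CPM in the 5 libraries of day 3 and at 68.4 in 3A38, 9.31 in 3B126, 3.70 in 3B77 and 7.15 in WT at day 8 (edgeR adjusted p = 0.0285). The call was lost without the library labelled 3B77 day 8 (edgeR adjusted p = 0.0526) and without 3A38, 3B126 or 3B77 (0.0582, 0.0652 and 0.0611). The retinoid binding protein gene Crabp1 went from 3.18 to 9.28 CPM over the libraries of day 3 to 7.49 to 6219 at day 8 (log2 fold change 8.48 ± 2.41, SE, edgeR adjusted p = 0.158).

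In the other lists edgeR called 0 members between days. DESeq2 called 18 genes over all lists at day 6 and 20 at day 8 against day 3, beside 5.93% and 11.4% of all genes. Of all genes 53.03% were fitted higher at day 6 and 48.4% at day 8 than at day 3, with 11.6% and 16.3% under 0.05 unadjusted in either direction. Of the 12 upstream regulators such as Cdx genes, T and Gdf11, 12 were fitted higher at day 6 than at day 3, 5 of them under 0.05 unadjusted. At day 8, 8 were fitted higher than at day 3, 3 of them under 0.05 unadjusted. Between days 8 and 6, 2 were fitted higher, beside 43.5% of all genes, with a median log2 fold change of -2.51. Between days 8 and 3, Gdf11 had 2.06 ± 0.72 (SE), Egr2 0.66 ± 3.66 and T 3.22 ± 2.31. Gdf11 at day 8 was at 216 CPM in 3A38 but at 0.431 to 6.46 in the other libraries, against 0.798 to 24.7 at day 3. Of the 9 TALE cofactors, the Meis, Pbx and Pknox genes whose products bind DNA with Hox proteins, 7 were fitted higher at day 8 than at day 3, 5 of them under 0.05 unadjusted. Pbx3 had a log2 fold change of 1.89 ± 0.57 (SE, edgeR adjusted p = 0.113). Of the 21 Polycomb and Trithorax genes, 10 were fitted higher at day 8, with a median of -0.10. The lowest adjusted p among the 3 most abundant of these was that of Phc1, with a log2 fold change of -2.12 ± 0.52 (SE, edgeR adjusted p = 0.0680). Of 15 forebrain and midbrain genes 8 were fitted higher at day 8, Otx2 having -2.82 ± 1.21 (SE, edgeR adjusted p = 0.290). Of 4 other posterior homeobox genes tested 3 were fitted higher, led in abundance by Evx1 (3.29 ± 1.73, SE, edgeR adjusted p = 0.372).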

How the data were processed

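Single cells of 5 clones were profiled at days 3, 6 and 8. Per the study's methods and the submitters' processing notes, cells were sorted into wells, amplified by a modified Smart-seq2 protocol, and read with FastQC 0.11.2, Trim Galore 0.5.0, STAR 2.7.1a and featureCounts 1.6.1 on GRCm38. The deposited table holds whole read counts for each gene in each cell, from which the authors left out multi-mapping reads, and 0 of its columns lacked a sample. Copies made by PCR are counted as reads.

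Counts were summed per clone and day, scaled by TMM (factors 0.574 to 1.43), filtered with filterByExpr and tested by the quasi-likelihood method of edgeR (version 4.0.16, R 4.3.3, robust fit, 9 genotype-by-day means, 5 residual degrees of freedom, Benjamini-Hochberg adjusted p under 0.05). WT had 1 library a day and borrowed its spread from the knockout clones. The p-values measure the spread between clones, which includes plates and batches, and not repeat cultures. On simulated counts of 23163 genes, the comparison of days 6 and 3 called 7, 43, 50 and 49 of 50 genes changed 4-, 16-, 64- and 256-fold. The changed genes were drawn from genes with higher counts than most members had, and rose by the same factor in every clone. These rates therefore do not hold for weakly counted members or for changes that differ between clones. Shares were tested by exact permutation in Python. Each day's cells of a clone come from the same line, so the clone pairs the days. Deviations of such pairs correlated at -0.0896 to 0.125. Cells were clustered with Seurat 5.3.0 (2000 variable genes, integration over 3 batches, 8 components, resolution 0.8), a class being named from at least 3 markers raised 2-fold and seen in 25% of its cells. Doublets were not called in these sorted wells.

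The members, the lists of companion genes and the tests were chosen with earlier results of these data known. Members seen in at least 20 cells or called by edgeR are described with values, except 1 that is not reported here, and of each list the genes called or the 3 with the highest mean CPM. Hoxa6, Hoxc12 and Hoxd11 were not analysed here. DESeq2 1.42.0, other filters, other read minimums and left-out clones or plates served as alternatives.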

Additional observations from a re-analysis of the deposited data

Results flagged for a closer look

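Within each day the clone farthest from the others was looked for in the share of Hox-positive cells and in the CPM of 8 widely detected members, 27 groups in all, with Dixon's criterion at its 95% level. It marked 14 groups, 11 of them for clone 3A38. Chance marks about 1 in 20 groups of independent, normally distributed values, and these members share libraries and are often at 0. In 3A38, Hoxa2 stood at 6.75 CPM at day 3 (others 0 to 0.846), 24.5 at day 6 (others 4.61 to 9.73) and 92.8 at day 8 (others 13.6 to 21.3). Its Hoxa3 stood at 1.87 at day 6 and 3.92 at day 8, its Hoxa5 at 10.4 at day 6, its Hoxb1 at 27.4 at day 6, and its Hoxb5 at 4.48 at day 6 and 19.2 at day 8. Its Hoxb7 stood at 1.26 at day 3 and 3.42 at day 6. Hoxa10 stood out at 2.30 in 3A2 at day 3 and at 0.590 in WT at day 6, and Hoxb5 at 0.649 in WT at day 3, with 12 of its 13 reads in 1 cell and the other libraries at 0.

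Hoxa5 was higher at day 6 than at day 3 in both 3AKO clones and lower in both 3BKO clones, with mean changes 5.43 CPM apart, and it was also lower in WT. The change was 6.03 CPM in 3A38, the highest. The difference between 3AKO and 3BKO was not tested.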

How the results depend on the processing

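Of the main results under alternatives, 233 values kept their direction and side of the threshold or stayed within their spread, 26 moved and 5 reversed. The 233 include genotype contrasts in which the number of members called stayed at 0. They also include share tests whose smallest possible p lay above 0.05, which could not cross the threshold, so this count is no measure of robustness. In 8 the unadjusted p of the day 8 minus day 3 share passed above 0.05, and in 1 that of day 6 minus day 3 fell below it. For single genes 117 kept theirs, 15 gained a call and 8 lost one. Between days 6 and 3, DESeq2 called 4 (Hoxa2, Hoxa9, Hoxb1 and Hoxb5), edgeR with no filter on low counts called the same 4, and leaving out a clone gave 0 to 2 (Hoxa2 and Hoxb1 without 3A2), where edgeR had 0. Between days 8 and 3, both DESeq2 and no filter called 3 (Hoxa2, Hoxb1 and Hoxb5) in place of 1, and leaving out a clone gave 0 to 1. Between days 8 and 6, DESeq2 called 1 (Hoxa10) in place of 0. Of all genes DESeq2 called 1428 and 2736 in the first 2 of these comparisons and no filter 808 and 1555, against 9 and 198.

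Over the companion lists, DESeq2 called 18, 20 and 3 genes at days 6 minus 3, 8 minus 3 and 8 minus 6, and no filter 15, 14 and 2, against 0, 2 and 0. Of all genes DESeq2 called 1428, 2736 and 330 and no filter 808, 1555 and 200, against 9, 198 and 0. Leaving out a clone gave 0 to 10, 2 to 12 and 0 to 1. Without the library labelled 3B77 day 8 there was 1 at day 6, beside 42 of all genes. Without plate C344, with or without that library, there were 7 at day 8, beside 787 and 796 of all genes.

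With the clone as a replicate block, Hoxa2 stayed called at day 8, Hoxb3os did not (edgeR adjusted p = 0.0663), and the difference in Hox-positive cells was 20.7 points (exact p = 0.13). Leaving out a clone gave 16.01 to 24.9 points (exact p of 0.0857 to 0.143 without 3A2, 3B126, 3B77 or WT), leaving out the library labelled 3B77 day 8 24.7, plate C344 20.4 and both 23.4. Hoxb3os also lost its call without 3A38 or 3B126 (edgeR adjusted p = 0.0636 and 0.0538), and Cyp26b1 without 3A38, 3B126 or 3B77 (0.0582, 0.0652 and 0.0611) and without the library labelled 3B77 day 8 (0.0526). Thinning to 50000 reads brought the difference at day 6 to 17.6 points. The difference of 3BKO from the others at day 8, 0.187 points, was -8.76 with at least 10 reads, -3.88 with at least 2 Hox genes and -9.89 thinned, and ran from -12.0 to 12.4 without single clones. Without 3A38 the neural progenitor-like share was 37.8% and the blood-like share 0%, and without integration the mesenchyme-like share was 50%. The cause was not tested.

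Leaving out 3A38 at day 6, and leaving out libraries or plates from the companion lists, the anterior and posterior classes and the clusters (there also clone 3A38), were chosen after seeing the data. Contrasts with WT could not be made without WT.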
